A study of Mus musculus with 9 samples.

Results

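The genes described here are the chromosome 5 neighbours of Slc12a9, the gene targeted in this study. They are the 74 genes of the mm10 mouse genome whose start in the GENCODE M21 annotation lies between 136 and 140 Mb of chromosome 5 and that had at least 10 counts in at least 3 of the 9 libraries. Slc12a9, Mcm7 and Polr2j lie in the same stretch and were left out. Of 175 genes that start there, 77 reached the count minimum and 98 did not, so the 74 genes are 74 of the 13575 genes tested in the series. Position and the count minimum define them, but they were chosen with earlier results of these data known. The minimum was reached in all 9 libraries by 64 of them, and 0 of them passed only through 1 group. They comprise 63 protein-coding genes and 11 others, which are long noncoding RNAs, antisense transcripts and pseudogenes. A start is the lower coordinate of a gene on either strand. Counted by start, 21 lie on the lower-coordinate side of Slc12a9 and 53 on the higher side.

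RNA was sequenced from J774A.1, a mouse macrophage line, in 3 groups of 3 libraries. One group carried SLC12A9 sgRNA 11, a second carried SLC12A9 sgRNA 15, and the control group carried a safe sgRNA. The labels give the genotype of both SLC12A9 groups as knockdown and that of the control as WT, while the design text speaks of knockout cells, so the groups go by their guide. All cells were kept with 10% serum and L-glutamine and then spent 6 h in medium without serum or glutamine before extraction, and the series asks how expression differs between the guides and control there. Whether a guide's cells were 1 clone or a pool, and which Cas9 construct they held, is not given in the sources used here. Nothing in the labels says that replicates came from separate cultures, so p-values measure the spread between these libraries, which may be technical.

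Gene counts ranged from 16405296 to 25613961 per library, and replicates varied by a biological coefficient of variation of 2.81%. The line was checked against its defining markers. All 8 macrophage markers (Cd68, Adgre1, Csf1r, Itgam, Lyz2, Fcgr1, Mrc1 and Cd14) were tested, and their summed level was 8530 to 8650 CPM (counts scaled to library size) with sgRNA 11, 6860 to 6970 CPM with sgRNA 15 and 4980 to 5110 CPM with safe sgRNA. The part of that difference in the results for the neighbourhood was not tested. T cell, B cell and epithelial markers summed to at most 0.316 CPM in any library, with Cd3e, Epcam and Krt18 at 0 in all, and fibroblast and endothelial lists to at most 2.79 CPM. Slc12a9 itself (ENSMUSG00000037344, 137314558 to 137333597, minus strand) had 62.3, 66.4 and 66.9 CPM with sgRNA 11, 48.1, 49.8 and 51.8 CPM with sgRNA 15 and 44.9, 53.6 and 47.1 CPM with safe sgRNA. Its RNA was higher with sgRNA 11 than with safe sgRNA (log2 0.43, SE 0.05, edgeR adjusted p = 6.52e-12) and not detectably different with sgRNA 15 (log2 0.04, SE 0.05, edgeR adjusted p = 0.499), so the knockdown named in the labels was not seen at the RNA level, and groups are called by the guide on their label throughout.

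Slc12a9 encodes a member of the cation-chloride cotransporter family that is found on lysosomes. Its neighbours have no common function: they include subunits of vesicle coats, partners of RNA polymerase II, zinc finger genes, secreted proteins and signalling proteins. Among them is a cluster of paired immunoglobulin-like receptors of myeloid cells, in which Pilra encodes the inhibitory receptor and Pilrb1 and Pilrb2 encode activating ones. The neighbours are described by position. Effects local to a targeted site and effects of what the target gene does in the cell cannot be told apart in this design.

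Promoter sequences from the RefSeq table (build GRCm38.p6, 250 bases before the start, read 5′ to 3′ on the gene's strand) are shown for the 3 receptor genes, which were all lower with sgRNA 15 than with sgRNA 11, and for Orai2 and Zfand2a. Orai2 and Zfand2a stand toward either end of the stretch but are not its outermost genes. Both were called different between the guides and hold a motif match, so they do not stand for the neighbours at large. Capitals mark matches on either strand to CACGTG, the core of the E-box bound by MiT/TFE and MYC factors, or to TTCNNGAA, the spaced half-sites bound by heat shock factor. The third motif searched, TGATGNAA, is the core of the element bound by ATF4 with C/EBP partners, and none of the 5 promoters held it. None of the motifs contains another, and TTCNNGAA was added after the values had been seen.
Pilra (chr5:137836279-137836528, minus strand): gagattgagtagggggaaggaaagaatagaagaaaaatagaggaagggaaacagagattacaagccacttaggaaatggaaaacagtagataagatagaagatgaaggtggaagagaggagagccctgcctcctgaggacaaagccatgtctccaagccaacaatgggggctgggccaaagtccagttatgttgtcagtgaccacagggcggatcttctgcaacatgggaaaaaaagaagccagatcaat
Pilrb1 (chr5:137858050-137858299, minus strand): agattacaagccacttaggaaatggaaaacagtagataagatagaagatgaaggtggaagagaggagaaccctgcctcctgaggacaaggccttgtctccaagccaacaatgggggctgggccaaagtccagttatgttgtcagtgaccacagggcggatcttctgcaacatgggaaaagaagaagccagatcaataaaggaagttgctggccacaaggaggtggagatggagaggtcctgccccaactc
Pilrb2 (chr5:137871759-137872008, minus strand): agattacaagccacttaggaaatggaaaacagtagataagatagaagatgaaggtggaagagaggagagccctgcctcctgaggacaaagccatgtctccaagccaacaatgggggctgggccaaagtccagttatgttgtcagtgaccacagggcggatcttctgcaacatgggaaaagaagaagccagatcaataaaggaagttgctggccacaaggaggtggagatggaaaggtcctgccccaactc
Orai2 (chr5:136170657-136170906, minus strand): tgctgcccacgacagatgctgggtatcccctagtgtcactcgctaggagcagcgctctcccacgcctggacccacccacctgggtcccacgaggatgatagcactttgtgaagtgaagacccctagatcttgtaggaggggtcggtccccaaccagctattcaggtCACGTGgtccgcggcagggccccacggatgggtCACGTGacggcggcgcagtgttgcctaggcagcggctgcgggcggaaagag
Zfand2a (chr5:139484492-139484741, minus strand): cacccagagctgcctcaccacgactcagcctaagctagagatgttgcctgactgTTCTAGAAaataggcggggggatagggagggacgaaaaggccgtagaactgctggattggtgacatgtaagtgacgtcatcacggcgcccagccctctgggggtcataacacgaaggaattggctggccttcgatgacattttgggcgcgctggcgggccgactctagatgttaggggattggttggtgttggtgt

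The receptor promoters are near copies of each other. Over the table's 300 bases, those of Pilrb1 and Pilrb2 were the same at 292 positions (97.3%). Pilra matched Pilrb1 at 242 of 246 bases (98.4%) and Pilrb2 at 244 of 246 (99.2%) once set off by 54 bases. Of the 74 neighbours, 61 matched an entry in the table, with 78 promoters of 300 bases between them, which end 50 bases after the start. CACGTG was present in 11 of those 78 promoters (14.1%), which belong to 10 genes, against 7.15% of all 32851 promoters in the table. TTCNNGAA was present in 8.97% of the neighbours' promoters and 8.52% of all, and TGATGNAA in 1.28% and 3.97%. Genes with a match went either way with sgRNA 11 against safe sgRNA. Of those with CACGTG, Orai2, Ache and Gpr146 were higher and Znhit1, Get4 and Mafk lower. Trip6, Lamtor4, Prkar1b and 3110082I17Rik did not pass. Of those with TTCNNGAA, Zfand2a, Gnb2, Taf6 and Cnpy4 were higher and Prkrip1 lower, while Ift22 and Pdgfa did not pass. A match is a description of the letters and no evidence of binding.

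With sgRNA 11, 27 of the 74 neighbours were higher than with safe sgRNA and 21 were lower in the edgeR quasi-likelihood test at an adjusted p under 0.05. That is 36.5% and 28.4% of them, beside 32.6% called higher and 32.6% called lower among all tested genes. The split followed the scaling: it was 31 higher and 17 lower with library size only, 26 and 27 with counts corrected for the GC content and length of transcripts, and 22 and 19 with DESeq2. Their median log2 difference was 0.11, against 0.01 over all tested genes and -0.04 over the 777 tested genes of chromosome 5 outside the stretch. It was -0.001 over the protein-coding neighbours alone, 0.012 with a minimum mean of 5 CPM and 0.063 after the GC and length correction. The receptor genes Pilra and Pilrb2, the calcium channel gene Orai2 and the meiotic chromatin reader gene Zcwpw1 were among those higher, and the vesicle coat gene Ap1s1, the RNA processing gene Srrt and the small Maf factor gene Mafk among those lower. In bulk RNA, fewer cells of a kind and less RNA per cell cannot be told apart.

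With sgRNA 15, 19 neighbours were higher than with safe sgRNA and 24 were lower, which is 25.7% and 32.4%. The shares over all tested genes were 31.3% and 30.9%. Scaling by library size only gave 23 higher and 23 lower, and DESeq2 gave 14 and 22. Zfand2a, Zcwpw1, Zfp113 and Fam20c were among those higher, and Srrt, Ap1s1, Sh2b2 and Micall2 among those lower. The median log2 difference of the neighbours was 0.05, against 0.003 over all tested genes and -0.04 over the rest of chromosome 5. Both guides were set against the same 3 safe libraries, so the 2 sets of differences are not independent.

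Set against each other, the guides differed at 29 neighbours: 8 were higher with sgRNA 15 than with sgRNA 11 and 21 were lower. These are 10.8% and 28.4% of the neighbours, and the shares over all tested genes were 17.7% higher and 15.4% lower. The median was -0.07, against 0.005 over all tested genes and 0.005 over the rest of chromosome 5. After the GC and length correction, the split was 10 higher and 14 lower and the median -0.02. With DESeq2 it was 4 higher and 19 lower, and with no filter on low counts 4 and 21. The neighbours' transcripts had a median GC content of 55.1%, beside 49.6% over all tested genes, and the part of GC content in the difference was not tested beyond that correction.

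The adjoining stretches of the same length are given for comparison. Among all tested genes, 17.7% were called higher and 15.4% lower between the guides. The shares against safe sgRNA were 32.6% and 32.6% with sgRNA 11, and 31.3% and 30.9% with sgRNA 15. In the 4 Mb below, which held 32 tested genes, 3 were higher and 6 lower with sgRNA 15 than with sgRNA 11 (median -0.05). In the 4 Mb above, which held 40, the numbers were 4 and 4 (median -0.02). Against safe sgRNA, the stretch below had 9 higher and 15 lower with sgRNA 11 (median -0.15) and 7 and 15 with sgRNA 15 (median -0.13). The stretch above had 13 and 12 with sgRNA 11 (median 0.04) and 11 and 13 with sgRNA 15 (median 0.04). No test of the difference between stretches was run.

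**Figure D1:**
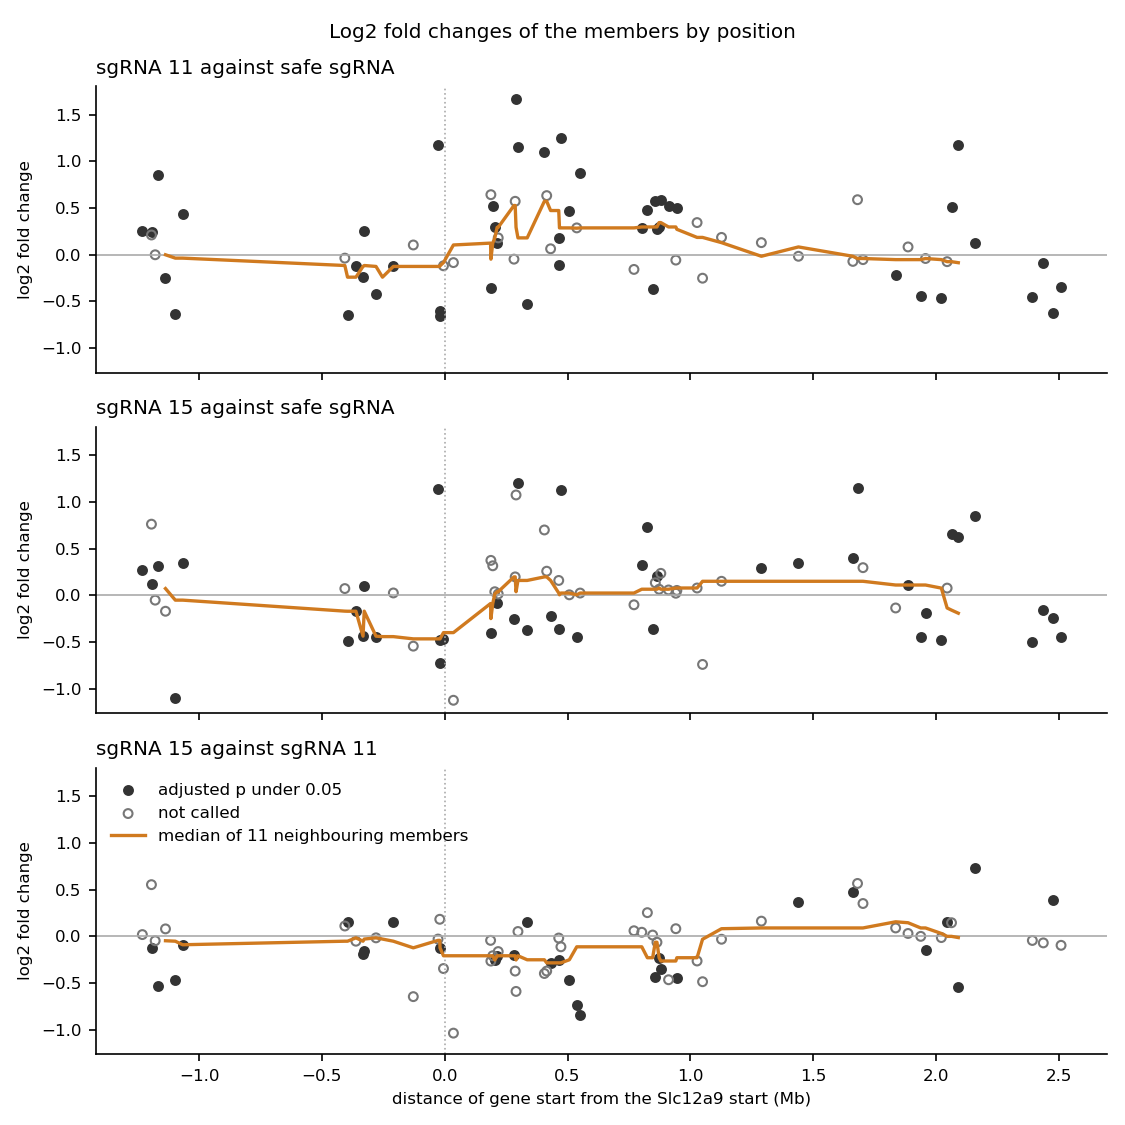
Log2 fold change of each neighbour, except 1 that is not drawn (vertical axis), against the distance of its start from that of Slc12a9 in Mb (horizontal axis), in a panel each for sgRNA 11 and sgRNA 15 relative to safe sgRNA and for sgRNA 15 relative to sgRNA 11. Filled points passed an adjusted p of 0.05, open points did not, and the line is the median of 11 neighbouring genes. In the bottom panel the line runs below 0 on both sides of Slc12a9, from its first point at -1.14 Mb to 1.05 Mb. It is lowest (-0.285) at 0.42 to 0.47 Mb. Between 137.5 and 138.5 Mb, 27 of the 34 genes had values under 0.

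By position, genes just above Slc12a9 had mostly lower values with sgRNA 15 than with sgRNA 11, which is given as a description with no test. The stretch was divided into 8 bins of 500 kb by start. Counts by bin stand beside the shares over all tested genes, which were 32.6% higher and 32.6% lower with sgRNA 11 than with safe sgRNA. With sgRNA 15 they were 31.3% and 30.9%, and between the guides 17.7% and 15.4%. The 34 genes of bins 4 and 5, from 137.5 to 138.5 Mb, were pooled after the values had been seen. Earlier results of these same data had shown the same pattern there, so their counts and median follow from that choice and are no separate support. With sgRNA 15 against sgRNA 11, 1 of the 34 genes was higher (2.94%) and 12 were lower (35.3%), 27 of 34 values were under 0 and the median was -0.24. The other 40 neighbours had 7 higher and 9 lower, with a median of -0.01, and after the GC and length correction they had 8 and 4, with a median of 0.056. They include bin 1, with 0 higher and 4 lower of 8 genes (50% lower, median -0.07). In bin 2, 1 was higher and 2 were lower of 5 genes (40% lower, median -0.05). Lower calls were thus not confined to bins 4 and 5. Relative to safe sgRNA, the 34 genes had 18 higher and 4 lower with sgRNA 11 (median 0.295) and 5 higher and 8 lower with sgRNA 15 (median 0.06), while the other 40 had 9 and 17 (median -0.07) and 14 and 16 (median -0.09). After the correction for GC content and length, the 34 genes had 17 higher and 7 lower with sgRNA 11 and 8 and 8 with sgRNA 15, and scaling by library size only gave 8 and 7 with sgRNA 15.

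The size of the median between the guides depended on which genes were kept. With each library left out in turn, 12 of the 34 genes were called lower every time in sgRNA 15 against sgRNA 11, and the median lay between -0.26 and -0.18. Restricted to the 21 genes with a mean of at least 5 CPM, the median was -0.12. After the correction for GC content and length it was -0.19, with 2 higher and 10 lower. Some of the genes share exons or sequence with another gene. Without those of uncertain counting, 25 remained, with 1 higher and 8 lower and a median of -0.21.

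In these bins the 3 sgRNA 11 libraries kept apart from the others. The bins were picked after the values of these same libraries had been seen, so this separation follows from that choice and is no separate support. In bin 4 the median deviation of the 20 genes from their own mean over 9 libraries (log2 scale) was 0.135, 0.15 and 0.199 with sgRNA 11, -0.087, -0.129 and -0.042 with sgRNA 15 and -0.16, -0.104 and -0.053 with safe sgRNA. In bin 5, with 14 genes, it was 0.153, 0.176 and 0.128 with sgRNA 11, 0.005, 0.015 and -0.016 with sgRNA 15 and -0.121, -0.093 and -0.194 with safe sgRNA. The sgRNA 11 libraries were thus above all 6 others in both bins. The sgRNA 15 and safe libraries overlapped in bin 4 and did not in bin 5.

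**Figure D2:**
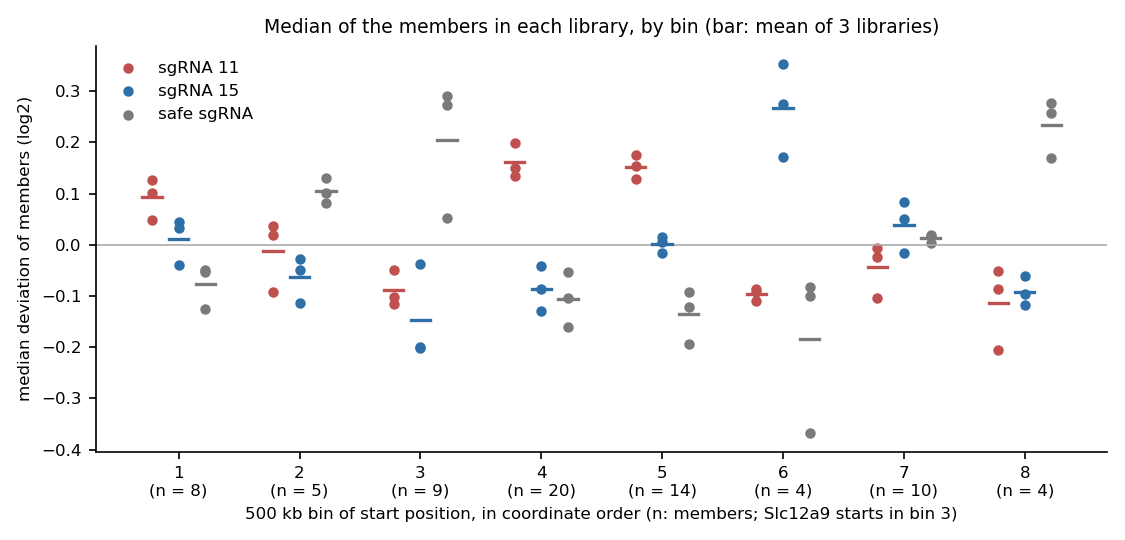
Median deviation of the neighbours in each library (log2, vertical axis; each gene's deviation is from its mean over the 9 libraries) for the 8 bins of 500 kb in coordinate order (horizontal axis), with points for libraries, a bar for the mean of 3 and the number of genes under each bin. The sgRNA 11 libraries lie highest in bin 1, at 0.049 to 0.127, and in bins 4 and 5, at 0.128 to 0.199. In bin 6 the sgRNA 15 libraries lie highest, at 0.172 to 0.353.

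Bin 3 holds Slc12a9 and 9 of its neighbours, of which 1 was higher and 5 lower with either guide than with safe sgRNA (11.1% and 55.6%). Among all tested genes the shares were 32.6% and 32.6% with sgRNA 11, and 31.3% and 30.9% with sgRNA 15. The neighbours nearest to Slc12a9 on its lower side are described first. Ap1s1 (ENSMUSG00000004849, 137034993 to 137046135, minus strand) encodes the small subunit of the AP-1 clathrin adaptor of the trans-Golgi network. Its level was 90.5, 91.4 and 92.9 CPM with sgRNA 11, 91.9, 89.7 and 90.0 CPM with sgRNA 15 and 122, 122 and 125 CPM with safe sgRNA. All 6 SLC12A9 guide libraries were below all safe ones. Ap1s1 fell with sgRNA 11 (log2 -0.42, SE 0.03, edgeR adjusted p = 3.25e-18) and with sgRNA 15 (log2 -0.44, SE 0.03, edgeR adjusted p = 8.9e-19), and the guides did not differ detectably (log2 -0.02, SE 0.04, edgeR adjusted p = 0.777).

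Trim56 (ENSMUSG00000043279, 137105644 to 137116209, minus strand) encodes a ubiquitin ligase of antiviral signalling. It had 55.3, 57.4 and 54.4 CPM with sgRNA 11, 61.0, 60.6 and 64.5 CPM with sgRNA 15 and 58.8, 62.0 and 61.6 CPM with safe sgRNA. Libraries of sgRNA 11 were the lowest, and those of sgRNA 15 and safe sgRNA overlapped. Trim56 was higher with sgRNA 15 than with sgRNA 11 (log2 0.15, SE 0.04, edgeR adjusted p = 0.0049). With sgRNA 11 it fell relative to safe sgRNA (log2 -0.13, SE 0.04, edgeR adjusted p = 0.0114), a call that was lost with scaling by library size only (log2 -0.09), without safe sgRNA replicate 2 (log2 -0.11) and without sgRNA 11 replicate 3 (log2 -0.11), and with sgRNA 15 its log2 difference was 0.03 (edgeR adjusted p = 0.611).

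Ache (ENSMUSG00000023328, 137287519 to 137294466, plus strand), which encodes acetylcholinesterase, was barely expressed. It had 0.613, 0.950 and 0.633 CPM with sgRNA 11, 0.578, 0.712 and 0.849 CPM with sgRNA 15 and 0.320, 0.304 and 0.325 CPM with safe sgRNA, or 14 to 17, 12 to 17 and 6 to 8 counts. Both guides lay above safe sgRNA without overlap. Ache rose with sgRNA 11 (log2 1.17, SE 0.44, edgeR adjusted p = 0.0155) and with sgRNA 15 (log2 1.14, SE 0.44, edgeR adjusted p = 0.0204). The first call was lost without sgRNA 11 replicate 2 (log2 0.96) and the second without sgRNA 15 replicate 3 (log2 1.02).

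Ufsp1 (ENSMUSG00000051502, 137294629 to 137295665, plus strand) encodes a protease for the ubiquitin-like modifier UFM1. Its level was 2.02, 2.23 and 2.49 CPM with sgRNA 11, 3.37, 2.60 and 1.52 CPM with sgRNA 15 and 3.36, 3.50 and 3.85 CPM with safe sgRNA. The sgRNA 11 libraries were below all safe ones, while the sgRNA 15 libraries spread widely and overlapped them. Ufsp1 fell with sgRNA 11 (log2 -0.66, SE 0.20, edgeR adjusted p = 0.00302) and with sgRNA 15 (log2 -0.48, SE 0.20, edgeR adjusted p = 0.0301). The call with sgRNA 15 was lost with DESeq2 (log2 -0.49), without safe sgRNA replicate 2 (log2 -0.49), without safe sgRNA replicate 3 (log2 -0.43), without sgRNA 15 replicate 2 (log2 -0.49) and without sgRNA 15 replicate 3 (log2 -0.26).

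Srrt (ENSMUSG00000037364, 137295704 to 137307674, minus strand) encodes ARS2, which links the nuclear cap-binding complex to RNA processing and decay. It had 153, 154 and 160.2 CPM with sgRNA 11, 143, 144 and 142 CPM with sgRNA 15 and 237, 237 and 235 CPM with safe sgRNA, and the 3 groups were separate. Srrt fell with sgRNA 11 (log2 -0.60, SE 0.03, edgeR adjusted p = 1.61e-30) and with sgRNA 15 (log2 -0.73, SE 0.03, edgeR adjusted p = 1.08e-34), to 0.659 and 0.605 times the safe level. It was lower with sgRNA 15 than with sgRNA 11 (log2 -0.12, SE 0.03, edgeR adjusted p = 0.000435), a call lost after correction for GC content and length (log2 -0.06).

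Trip6 (ENSMUSG00000023348, 137309654 to 137314404, minus strand), next to Slc12a9, encodes a LIM-domain adaptor of focal adhesions. It had 4.34, 4.30 and 4.21 CPM with sgRNA 11, 3.08, 3.56 and 3.46 CPM with sgRNA 15 and 4.96, 5.07 and 3.85 CPM with safe sgRNA. The sgRNA 15 libraries were the lowest, and the other groups overlapped. Trip6 fell with sgRNA 15 relative to safe sgRNA (log2 -0.47, SE 0.16, edgeR adjusted p = 0.00946), a call lost without safe sgRNA replicate 1 (log2 -0.40) and without sgRNA 15 replicate 1 (log2 -0.40). With sgRNA 11 the value was -0.12 (edgeR adjusted p = 0.51), and between the guides it was -0.35 (edgeR adjusted p = 0.0966). On the same side, the processed pseudogene Gm20768 (ENSMUSG00000106190, 137186830 to 137189167, minus strand), had 0.876, 1.23 and 0.543 CPM with sgRNA 11, 0.289, 0.880 and 0.424 CPM with sgRNA 15 and 0.840, 0.912 and 0.650 CPM with safe sgRNA and overlapped in all groups. It passed no test with all libraries, shares 20% of its 50-base words with Ppig, and would pass with sgRNA 15 without sgRNA 15 replicate 2 (log2 -1.18) against safe sgRNA and without sgRNA 15 replicate 2 (log2 -1.29) against sgRNA 11.

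Among the 8 nearest genes on the higher side, the first, Ephb4 (ENSMUSG00000029710, 137350109 to 137378669, plus strand), encodes a receptor tyrosine kinase for ephrin-B2. It had 0.657, 0.335 and 0.317 CPM with sgRNA 11, 0.241, 0.168 and 0.243 CPM with sgRNA 15 and 0.600, 0.608 and 0.163 CPM with safe sgRNA. The sgRNA 15 libraries lay below those of sgRNA 11 and overlapped those of safe sgRNA, at 4 to 5 counts per library. No comparison of Ephb4 passed (log2 -1.12, SE 0.55, edgeR adjusted p = 0.0704 for sgRNA 15 against safe sgRNA), but that one did without safe sgRNA replicate 3 (log2 -1.48).

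Pop7 (ENSMUSG00000029715, 137501438 to 137502518, minus strand) encodes a protein subunit shared by the RNase P and RNase MRP enzymes. It had 14.2, 12.7 and 15.2 CPM with sgRNA 11, 12.7, 13.8 and 14.7 CPM with sgRNA 15 and 17.7, 17.2 and 19.3 CPM with safe sgRNA, with both guides below all safe libraries. Pop7 fell with sgRNA 11 (log2 -0.35, SE 0.08, edgeR adjusted p = 0.000158) and with sgRNA 15 (log2 -0.40, SE 0.09, edgeR adjusted p = 3.35e-05). Its divergent neighbour, the noncoding 9130604C24Rik (ENSMUSG00000105851, 137502673 to 137503628, plus strand), had 0.219, 0.782 and 0.543 CPM with sgRNA 11, 0.578, 0.168 and 0.546 CPM with sgRNA 15 and 0.320, 0.253 and 0.379 CPM with safe sgRNA. Its groups overlapped and passed no test.

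Gm8066 (ENSMUSG00000106237, 137510253 to 137517501, plus strand), a long noncoding RNA, had 2.63, 1.96 and 3.08 CPM with sgRNA 11, 2.17, 2.47 and 2.00 CPM with sgRNA 15 and 1.80, 1.72 and 1.84 CPM with safe sgRNA. Both guides were above the safe libraries and overlapped each other. Gm8066 rose with sgRNA 11 (log2 0.53, SE 0.22, edgeR adjusted p = 0.0326), a call lost with DESeq2 (log2 0.52), without safe sgRNA replicate 1 (log2 0.55), without safe sgRNA replicate 2 (log2 0.50), without safe sgRNA replicate 3 (log2 0.55), without sgRNA 11 replicate 1 (log2 0.51) and without sgRNA 11 replicate 3 (log2 0.37). With sgRNA 15 the value was log2 0.32, SE 0.23, edgeR adjusted p = 0.226, and it passed after correction for GC content and length (log2 0.58).

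Gigyf1 (ENSMUSG00000029714, 137518548 to 137527935, plus strand) encodes a GYF-domain partner of the adaptor GRB10 that also takes part in translational repression. It had 45.04, 44.8 and 46.2 CPM with sgRNA 11, 36.9, 38.5 and 38.8 CPM with sgRNA 15 and 34.6, 39.0 and 37.8 CPM with safe sgRNA. The sgRNA 11 libraries were above the 6 others, which overlapped. Gigyf1 was lower with sgRNA 15 than with sgRNA 11 (log2 -0.25, SE 0.05, edgeR adjusted p = 6.04e-05). It rose with sgRNA 11 relative to safe sgRNA (log2 0.29, SE 0.05, edgeR adjusted p = 1.25e-06), and with sgRNA 15 its value was 0.04 (edgeR adjusted p = 0.539).

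Gnb2 (ENSMUSG00000029713, 137528127 to 137533510, minus strand), which encodes a beta subunit of heterotrimeric G proteins, was called in opposite directions with the guides. It had 312, 326 and 326 CPM with sgRNA 11, 276, 278 and 280.2 CPM with sgRNA 15 and 289, 294 and 302 CPM with safe sgRNA, and the 3 groups did not overlap. Gnb2 was lower with sgRNA 15 than with sgRNA 11 (log2 -0.21, SE 0.03, edgeR adjusted p = 2.59e-10). It rose with sgRNA 11 relative to safe sgRNA (log2 0.12, SE 0.03, edgeR adjusted p = 2.04e-05), a call lost after correction for GC content and length, where the sign turned (log2 -0.004). It fell with sgRNA 15 (log2 -0.09, SE 0.03, edgeR adjusted p = 0.00298), which was lost with scaling by library size only (log2 -0.04). The antisense transcript Gm17112 (ENSMUSG00000090873, 137532423 to 137540718, plus strand), next to it, had 1.40, 0.559 and 0.633 CPM with sgRNA 11, 1.01, 0.587 and 0.788 CPM with sgRNA 15 and 0.640, 0.810 and 0.921 CPM with safe sgRNA. Its groups overlapped and passed no test.

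Mospd3 (ENSMUSG00000037221, 137596645 to 137601058, minus strand) encodes a membrane protein with a major sperm protein domain. It had 45.1, 42.5 and 47.1 CPM with sgRNA 11, 42.4, 38.1 and 36.8 CPM with sgRNA 15 and 44.1, 48.2 and 47.7 CPM with safe sgRNA. The sgRNA 15 libraries were the lowest, and sgRNA 11 and safe sgRNA overlapped. Mospd3 fell with sgRNA 15 relative to safe sgRNA (log2 -0.25, SE 0.05, edgeR adjusted p = 4.57e-05). It was also lower with sgRNA 15 than with sgRNA 11 (log2 -0.20, SE 0.05, edgeR adjusted p = 0.00207), a call lost after correction for GC content and length (log2 -0.10). With sgRNA 11 the value was -0.05 (edgeR adjusted p = 0.433), and it passed after correction for GC content and length (log2 -0.14).

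Farther along the higher side stand the other genes of bins 4 and 5. Pilra (ENSMUSG00000046245, 137821952 to 137836281, minus strand), the inhibitory receptor gene, was the most abundant of its cluster. It had 126, 125 and 133 CPM with sgRNA 11, 98.2, 92.8 and 86.3 CPM with sgRNA 15 and 96.6, 92.6 and 86.7 CPM with safe sgRNA. The sgRNA 11 libraries were above all 6 others, and the sgRNA 15 and safe libraries overlapped. Pilra was lower with sgRNA 15 than with sgRNA 11 (log2 -0.47, SE 0.04, edgeR adjusted p = 1.12e-15). Relative to safe sgRNA it rose with sgRNA 11 (log2 0.47, SE 0.04, edgeR adjusted p = 9.54e-17), and with sgRNA 15 its value was 0.01 (edgeR adjusted p = 0.883).

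Pilrb2 (ENSMUSG00000066682, 137865827 to 137871815, minus strand), an activating receptor gene, had 7.05, 5.48 and 4.98 CPM with sgRNA 11, 3.23, 2.85 and 3.82 CPM with sgRNA 15 and 3.12, 3.34 and 3.14 CPM with safe sgRNA. Here too the sgRNA 11 libraries were above the 6 others, which overlapped. Pilrb2 was lower with sgRNA 15 than with sgRNA 11 (log2 -0.85, SE 0.16, edgeR adjusted p = 1.31e-05) and rose with sgRNA 11 relative to safe sgRNA (log2 0.87, SE 0.16, edgeR adjusted p = 2.13e-06). With sgRNA 15 the value was 0.03 (edgeR adjusted p = 0.908).

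Pilrb1 (ENSMUSG00000066684, 137852147 to 137858106, minus strand), the second activating receptor gene, had 3.77, 5.70 and 4.98 CPM with sgRNA 11, 3.08, 3.02 and 2.43 CPM with sgRNA 15 and 3.80, 4.36 and 3.58 CPM with safe sgRNA. The sgRNA 15 libraries were below the other 6. Pilrb1 was lower with sgRNA 15 than with sgRNA 11 (log2 -0.73, SE 0.17, edgeR adjusted p = 0.000366). Its fall with sgRNA 15 relative to safe sgRNA (log2 -0.45, SE 0.18, edgeR adjusted p = 0.024) was lost with DESeq2 (log2 -0.45), without safe sgRNA replicate 2 (log2 -0.37) and without sgRNA 15 replicate 3 (log2 -0.36). With sgRNA 11 the value was 0.29 (edgeR adjusted p = 0.114), and it passed without sgRNA 11 replicate 1 (log2 0.44). Pilrb1 and Pilrb2 share 33.7% and 31.6% of their 50-base words with each other, so reads could be split between them or dropped, and their counts are uncertain. Pilra shares 15.1% of its exon length with Zcwpw1 on the opposite strand and is uncertain for that reason, as the strand setting of the counting is not given in the sources used here.

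Zcwpw1 (ENSMUSG00000037108, 137787798 to 137822621, plus strand) encodes a reader of histone methylation known from meiosis. It had 7.10, 7.43 and 7.33 CPM with sgRNA 11, 7.61, 6.45 and 6.06 CPM with sgRNA 15 and 2.56, 3.09 and 3.68 CPM with safe sgRNA. Both guides stood above all safe libraries and overlapped each other. Zcwpw1 rose 2.37-fold with sgRNA 11 (log2 1.25, SE 0.14, edgeR adjusted p = 7.35e-12) and 2.19-fold with sgRNA 15 (log2 1.13, SE 0.15, edgeR adjusted p = 3.27e-10), and between the guides the value was -0.11 (edgeR adjusted p = 0.543).

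Agfg2 (ENSMUSG00000029722, 137650463 to 137684726, minus strand), which encodes an Arf GTPase-activating protein with FG repeats, ran the other way. It had 34.8, 34.1 and 36.5 CPM with sgRNA 11, 35.6, 40.2 and 42.2 CPM with sgRNA 15 and 49.3, 51.7 and 51.4 CPM with safe sgRNA, and both guides were below all safe libraries. Agfg2 fell with sgRNA 11 (log2 -0.53, SE 0.05, edgeR adjusted p = 4.75e-14) and with sgRNA 15 (log2 -0.37, SE 0.05, edgeR adjusted p = 5.52e-09). It was the single gene of bins 4 and 5 called higher with sgRNA 15 than with sgRNA 11 (log2 0.16, SE 0.06, edgeR adjusted p = 0.0205), and those groups overlapped. That call was lost with DESeq2 (log2 0.16), with no filter on low counts (log2 0.15), without sgRNA 11 replicate 1 (log2 0.15), without sgRNA 11 replicate 2 (log2 0.14), without sgRNA 15 replicate 2 (log2 0.14) and without sgRNA 15 replicate 3 (log2 0.11).

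Zfp113 (ENSMUSG00000037007, 138139702 to 138155744, minus strand), a zinc finger gene, had 6.53, 6.26 and 6.06 CPM with sgRNA 11, 7.56, 7.42 and 7.52 CPM with sgRNA 15 and 5.28, 4.001 and 4.06 CPM with safe sgRNA, with no overlap between any of the groups. Zfp113 rose with sgRNA 11 (log2 0.48, SE 0.13, edgeR adjusted p = 0.00122) and with sgRNA 15 (log2 0.73, SE 0.13, edgeR adjusted p = 1.23e-06), while the value between the guides was 0.25 (edgeR adjusted p = 0.111). BC037034, chosen after its values were seen, had 84.2, 84.0 and 86.2 CPM with sgRNA 11, 61.0, 62.9 and 62.4 CPM with sgRNA 15 and 59.5, 59.1 and 61.0 CPM with safe sgRNA. The sgRNA 11 libraries were above all 6 others, and the sgRNA 15 and safe libraries met at 61.0 CPM. It was lower with sgRNA 15 than with sgRNA 11 (log2 -0.45, SE 0.04, edgeR adjusted p = 2.8e-15) and rose with sgRNA 11 relative to safe sgRNA (log2 0.50, SE 0.04, edgeR adjusted p = 3.85e-18). With sgRNA 15 the value was 0.05 (edgeR adjusted p = 0.274), and it passed with scaling by library size only (log2 0.10).

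Some of the named transcripts of bins 4 and 5 were scarce, with at most 2 CPM in every library. Pcolce (ENSMUSG00000029718, 137605103 to 137613784, minus strand), which encodes an enhancer of procollagen processing, had 0.570, 0.782 and 0.679 CPM with sgRNA 11, 0.530, 0.335 and 0.485 CPM with sgRNA 15 and 0.120, 0.101 and 0.433 CPM with safe sgRNA. Its sgRNA 11 libraries were above the safe ones and above those of sgRNA 15. Pcolce rose with sgRNA 11 (log2 1.67, SE 0.51, edgeR adjusted p = 0.00297), and with sgRNA 15 the value was log2 1.08, SE 0.55, edgeR adjusted p = 0.0833, which passed with limma-voom (log2 1.24) and without safe sgRNA replicate 3 (log2 1.93).

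The antisense transcript Gm36266 (ENSMUSG00000106617, 137612852 to 137615247, plus strand) had 0.613, 0.727 and 0.407 CPM with sgRNA 11, 0.433, 0.461 and 0.970 CPM with sgRNA 15 and 0.160, 0.203 and 0.433 CPM with safe sgRNA, and all groups overlapped. It rose with sgRNA 11 (log2 1.16, SE 0.50, edgeR adjusted p = 0.0379), a call lost with DESeq2 (log2 1.16), with no filter on low counts (log2 1.17), without safe sgRNA replicate 1 (log2 0.87), without safe sgRNA replicate 2 (log2 1.03), without sgRNA 11 replicate 1 (log2 1.10) and without sgRNA 11 replicate 2 (log2 0.99). It rose with sgRNA 15 (log2 1.21, SE 0.50, edgeR adjusted p = 0.0316), a call lost with DESeq2 (log2 1.23), with no filter on low counts (log2 1.21), without safe sgRNA replicate 1 (log2 0.91), without safe sgRNA replicate 2 (log2 1.08) and without sgRNA 15 replicate 3 (log2 0.80). It shares 14.3% of its exon length with Fbxo24 on the opposite strand.

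The pseudogene Gm15753 (ENSMUSG00000082088, 137720354 to 137721740, minus strand) had 1.14, 1.40 and 1.36 CPM with sgRNA 11, 0.818, 1.13 and 0.970 CPM with sgRNA 15 and 0.680, 0.557 and 0.542 CPM with safe sgRNA, with the 3 groups separate. Gm15753 rose with sgRNA 11 (log2 1.10, SE 0.33, edgeR adjusted p = 0.00301), and with sgRNA 15 its value was 0.70 (edgeR adjusted p = 0.0768). It shares 54.0% of its 50-base words with Sp110, so reads of that gene could be counted there.

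**Figure D3:**
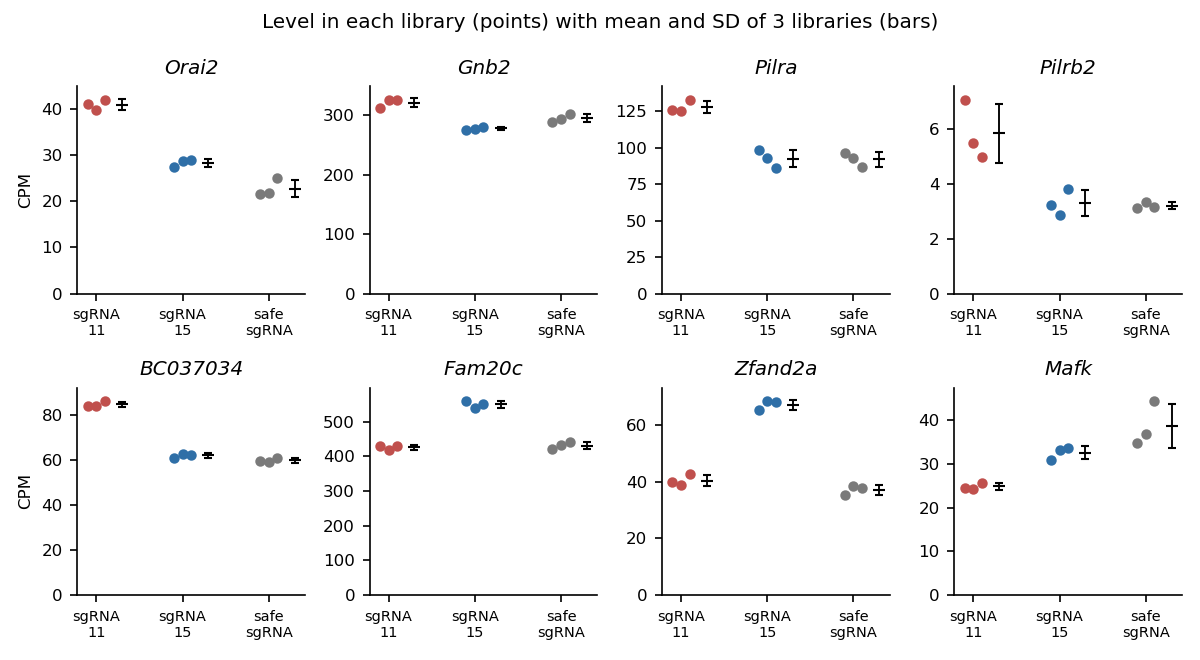
CPM in each library (points) with the mean and SD of 3 libraries (bars) for 8 neighbours, with sgRNA 11, sgRNA 15 and safe sgRNA from left to right and each vertical axis starting at 0. Orai2, Gnb2, Pilra, Pilrb2 and BC037034 are highest with sgRNA 11, Fam20c and Zfand2a with sgRNA 15 (means of 67.3 ± 1.76, against 37.3 ± 1.79 CPM with safe sgRNA for Zfand2a) and Mafk with safe sgRNA.

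In the next bin the values between the guides were above 0. In bin 6, from 138.5 to 139.0 Mb, all 4 genes (Zfp68, Fam20c, Pdgfa and 6330403L08Rik) were higher with sgRNA 15 than with safe sgRNA (median 0.38), and the median with sgRNA 11 was 0.06. All 4 values of sgRNA 15 against sgRNA 11 were above 0 (median 0.42) and 2 passed. Among all tested genes, 31.3% were called higher with sgRNA 15 than with safe sgRNA and 17.7% higher than with sgRNA 11. Fam20c (ENSMUSG00000025854, 138754514 to 138810077, plus strand), the most abundant neighbour in CPM, encodes the kinase of the Golgi that phosphorylates secreted proteins. It had 430.1, 418 and 429 CPM with sgRNA 11, 558, 538 and 552 CPM with sgRNA 15 and 422, 431 and 439.9 CPM with safe sgRNA. The sgRNA 15 libraries were above all others, and sgRNA 11 and safe sgRNA overlapped. Fam20c was higher with sgRNA 15 than with sgRNA 11 (log2 0.37, SE 0.02, edgeR adjusted p = 1.09e-21) and than with safe sgRNA (log2 0.35, SE 0.02, edgeR adjusted p = 1.96e-21). With sgRNA 11 the value was -0.02 (edgeR adjusted p = 0.562), and it passed as lower after correction for GC content and length (log2 -0.14).

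Pdgfa (ENSMUSG00000025856, 138976014 to 138997370, minus strand) encodes a chain of platelet-derived growth factor. It had 3.07, 2.85 and 2.94 CPM with sgRNA 11, 4.19, 3.52 and 4.79 CPM with sgRNA 15 and 3.16, 3.80 and 2.33 CPM with safe sgRNA, and sgRNA 15 overlapped safe sgRNA but not sgRNA 11. Pdgfa rose with sgRNA 15 relative to safe sgRNA (log2 0.40, SE 0.18, edgeR adjusted p = 0.0405), which was lost with DESeq2 (log2 0.41), with limma-voom (log2 0.40), with no filter on low counts (log2 0.41), without safe sgRNA replicate 1 (log2 0.42), without safe sgRNA replicate 3 (log2 0.25), without sgRNA 15 replicate 1 (log2 0.40) and without sgRNA 15 replicate 3 (log2 0.30). It was higher with sgRNA 15 than with sgRNA 11 (log2 0.48, SE 0.18, edgeR adjusted p = 0.0303), which was lost with DESeq2 (log2 0.48), with limma-voom (log2 0.45), with no filter on low counts (log2 0.46), without sgRNA 11 replicate 2 (log2 0.45), without sgRNA 11 replicate 3 (log2 0.47), without sgRNA 15 replicate 1 (log2 0.46) and without sgRNA 15 replicate 3 (log2 0.38). The antisense transcript 6330403L08Rik (ENSMUSG00000075585, 138995056 to 139000577, plus strand) had 1.05, 1.40 and 1.81 CPM with sgRNA 11, 2.21, 1.89 and 2.24 CPM with sgRNA 15 and 1.28, 0.760 and 0.704 CPM with safe sgRNA. Its sgRNA 15 libraries were above all others. It rose with sgRNA 15 relative to safe sgRNA (log2 1.16, SE 0.28, edgeR adjusted p = 0.000229). With sgRNA 11 the value was 0.59 (edgeR adjusted p = 0.074), which passed without safe sgRNA replicate 1 (log2 0.96) and without sgRNA 11 replicate 1 (log2 0.78), and between the guides it was 0.57 (edgeR adjusted p = 0.0874), which passed after correction for GC content and length (log2 0.65) and without sgRNA 11 replicate 3 (log2 0.79). Pdgfa and this transcript share exon sequence on opposite strands (26.1% and 14.7% of their exon lengths), so their counts are uncertain.

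Zfand2a (ENSMUSG00000053581, 139471211 to 139484549, minus strand), in bin 7, showed the largest difference between the guides in favour of sgRNA 15 among the genes called. It encodes AIRAP, an arsenite-inducible partner of the proteasome, and its promoter is the one shown above with a TTCNNGAA match. It had 39.9, 38.8 and 42.8 CPM with sgRNA 11, 65.3, 68.5 and 68.1 CPM with sgRNA 15 and 35.3, 38.6 and 38.0 CPM with safe sgRNA, and no group overlapped another. Zfand2a was 1.66 times as high with sgRNA 15 as with sgRNA 11 (log2 0.73, SE 0.05, edgeR adjusted p = 2.18e-21) and rose 1.81-fold relative to safe sgRNA (log2 0.86, SE 0.05, edgeR adjusted p = 2.48e-25). With sgRNA 11 it rose slightly (log2 0.12, SE 0.05, edgeR adjusted p = 0.0319), a call lost after correction for GC content and length (log2 0.08), with DESeq2 (log2 0.12), without safe sgRNA replicate 1 (log2 0.09) and without sgRNA 11 replicate 3 (log2 0.08).

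C130050O18Rik (ENSMUSG00000044092, 139405280 to 139415623, plus strand), a protein-coding gene, starts 2090.7 kb above the start of Slc12a9, followed among the neighbours by Zfand2a at 2156.7 kb, and went the other way between the guides. It had 17.7, 15.9 and 16.5 CPM with sgRNA 11, 11.9, 10.6 and 12.2 CPM with sgRNA 15 and 7.04, 6.84 and 8.56 CPM with safe sgRNA, with the 3 groups separate. It was lower with sgRNA 15 than with sgRNA 11 (log2 -0.54, SE 0.09, edgeR adjusted p = 9.25e-07), and rose with sgRNA 11 (log2 1.17, SE 0.10, edgeR adjusted p = 1.26e-17) and with sgRNA 15 (log2 0.63, SE 0.10, edgeR adjusted p = 2.26e-07) relative to safe sgRNA. It overlaps 3110082I17Rik (ENSMUSG00000053553, 139359739 to 139460527, minus strand) on the opposite strand over 11.4% of its own exon length and 12.5% of that of 3110082I17Rik, so both are uncertain. 3110082I17Rik had 32.5, 35.6 and 35.4 CPM with sgRNA 11, 40.7, 38.0 and 36.1 CPM with sgRNA 15 and 36.5, 35.9 and 36.5 CPM with safe sgRNA. Its sgRNA 15 libraries were above those of sgRNA 11 (log2 0.15, SE 0.06, edgeR adjusted p = 0.025), a call lost with DESeq2 (log2 0.15), with no filter on low counts (log2 0.14), without sgRNA 11 replicate 1 (log2 0.11) and without sgRNA 15 replicate 1 (log2 0.11). Against safe sgRNA its values were -0.07 with sgRNA 11, which passed after correction for GC content and length (log2 -0.17), and 0.08 with sgRNA 15, which passed with scaling by library size only (log2 0.12).

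At the upper end, in bin 8, all 4 genes (Micall2, Ints1, Mafk and Psmg3) were lower with either guide than with safe sgRNA. Their medians were -0.40 for sgRNA 11 and -0.34 for sgRNA 15. Among all tested genes, 32.6% were called lower with sgRNA 11 and 30.9% with sgRNA 15. With sgRNA 11, the call of Ints1 (log2 -0.09) was lost in 5 of 18 alternatives, 2 of which left out safe sgRNA replicate 3 or sgRNA 11 replicate 2. The call of Psmg3 with sgRNA 11 (log2 -0.35) was lost without sgRNA 11 replicate 1 (log2 -0.27). Micall2 (ENSMUSG00000036718, 139706696 to 139736336, minus strand) encodes a Rab effector of junction and membrane traffic. It had 37.5, 40.9 and 39.0 CPM with sgRNA 11, 38.8, 38.8 and 35.5 CPM with sgRNA 15 and 54.6, 52.7 and 53.2 CPM with safe sgRNA. Both guides were below all safe libraries and overlapped each other. Micall2 fell with sgRNA 11 (log2 -0.46, SE 0.05, edgeR adjusted p = 1.35e-12) and with sgRNA 15 (log2 -0.50, SE 0.05, edgeR adjusted p = 6.43e-14).

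Mafk (ENSMUSG00000018143, 139791513 to 139802653, plus strand), a small Maf factor that pairs with NRF2 and BACH1, had 24.5, 24.3 and 25.7 CPM with sgRNA 11, 30.9, 33.1 and 33.6 CPM with sgRNA 15 and 34.7, 36.8 and 44.3 CPM with safe sgRNA. Libraries of sgRNA 11 were lowest, those of sgRNA 15 lay between, and safe sgRNA was highest, with no overlap. Mafk was higher with sgRNA 15 than with sgRNA 11 (log2 0.39, SE 0.07, edgeR adjusted p = 3.3e-06). It fell relative to safe sgRNA with sgRNA 11 (log2 -0.63, SE 0.07, edgeR adjusted p = 9.9e-13) and with sgRNA 15 (log2 -0.24, SE 0.06, edgeR adjusted p = 0.000864), and the call with sgRNA 15 was lost without safe sgRNA replicate 3 (log2 -0.13).

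On the far lower side, in bin 1, 4 of 8 genes were lower with sgRNA 15 than with sgRNA 11. They were Lrwd1, Cux1 and the signalling genes Orai2 and Sh2b2. Orai2 (ENSMUSG00000039747, 136147459 to 136170713, minus strand) encodes a store-operated calcium channel, and its promoter is the one above with a pair of CACGTG matches. It had 41.2, 39.8 and 42.0 CPM with sgRNA 11, 27.4, 28.8 and 28.9 CPM with sgRNA 15 and 21.6, 21.8 and 25.0 CPM with safe sgRNA, and the groups were separate. Orai2 was lower with sgRNA 15 than with sgRNA 11 (log2 -0.54, SE 0.06, edgeR adjusted p = 6.58e-12), and rose 1.81-fold with sgRNA 11 (log2 0.86, SE 0.06, edgeR adjusted p = 8.87e-21) and 1.25-fold with sgRNA 15 (log2 0.32, SE 0.06, edgeR adjusted p = 1.18e-05) relative to safe sgRNA.

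Sh2b2 (ENSMUSG00000005057, 136218147 to 136246556, minus strand) encodes an adaptor of insulin receptor and JAK signalling. It had 6.27, 4.58 and 5.38 CPM with sgRNA 11, 4.14, 3.65 and 4.06 CPM with sgRNA 15 and 8.44, 7.39 and 9.59 CPM with safe sgRNA, and the groups were separate, with sgRNA 15 lowest. Sh2b2 fell with sgRNA 11 (log2 -0.63, SE 0.13, edgeR adjusted p = 1.25e-05) and with sgRNA 15 (log2 -1.10, SE 0.14, edgeR adjusted p = 6.52e-11). It was lower with sgRNA 15 than with sgRNA 11 (log2 -0.47, SE 0.14, edgeR adjusted p = 0.00763), a call lost without sgRNA 11 replicate 1 (log2 -0.35). The noncoding 4933404O12Rik (ENSMUSG00000097908, 136919146 to 136937112, plus strand), in bin 2, had 32.4, 32.5 and 30.9 CPM with sgRNA 11, 36.5, 35.4 and 34.3 CPM with sgRNA 15 and 48.8, 50.5 and 50.2 CPM with safe sgRNA, with all groups separate. It fell with sgRNA 11 (log2 -0.64, SE 0.05, edgeR adjusted p = 4.78e-18) and with sgRNA 15 (log2 -0.49, SE 0.05, edgeR adjusted p = 2.72e-13). It was higher with sgRNA 15 than with sgRNA 11 (log2 0.15, SE 0.06, edgeR adjusted p = 0.0242), a call lost with DESeq2 (log2 0.15), with no filter on low counts (log2 0.14), without sgRNA 11 replicate 3 (log2 0.12), without sgRNA 15 replicate 1 (log2 0.13) and without sgRNA 15 replicate 2 (log2 0.15).

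**Figure D4:**
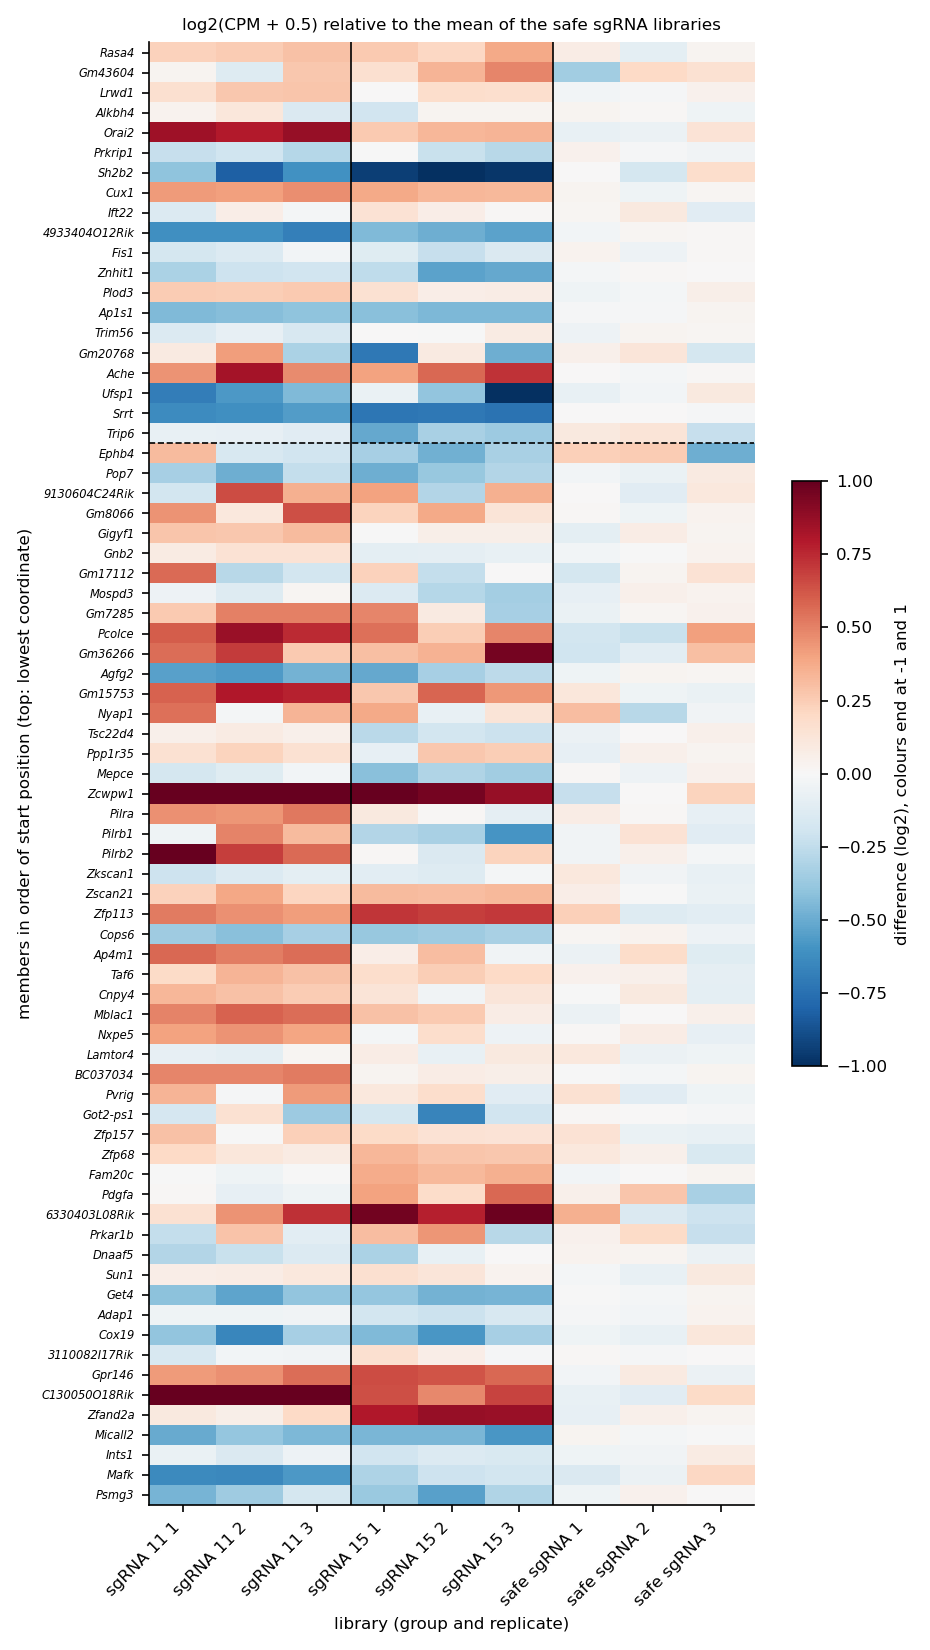
Heat map of the neighbours, except 1 that is not drawn (rows, in order of start, with the dashed line at Slc12a9), in the 9 libraries (columns), coloured by log2(CPM + 0.5) minus the mean of the safe libraries, with colours ending at -1 and 1. Several rows below the dashed line are red in the 3 sgRNA 11 columns and pale in the sgRNA 15 columns, as at Pilra (fitted log2 0.47 with sgRNA 11 and 0.01 with sgRNA 15), while rows such as Ap1s1 and Zcwpw1 have like colours with both guides.

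The neighbours are next given by role, and each count stands beside the same shares of all tested genes: 32.6% higher and 32.6% lower with sgRNA 11 than with safe sgRNA, 31.3% and 30.9% with sgRNA 15, and 17.7% and 15.4% between the guides. The lists hold 2 to 17 genes, so 1 gene moves a share widely, and no share is read as particular to a list. The 9 neighbours of membrane traffic, the lysosome and mTORC1 had 1 higher and 5 lower with sgRNA 11 than with safe sgRNA (11.1% and 55.6%, median -0.12), and 6 lower with sgRNA 15 (66.7%, median -0.19). Fis1, of mitochondrial fission, is 1 of the 5 and also stands in the list of mitochondria; its call with sgRNA 11 (log2 -0.12) was lost in 11 of 18 alternatives, and its call with sgRNA 15 (log2 -0.17) was lost without sgRNA 15 replicate 2 (log2 -0.13). Beside Ap1s1, Agfg2 and Micall2, Get4, which helps insert tail-anchored proteins into membranes, fell with sgRNA 11 (log2 -0.44, edgeR adjusted p = 3.22e-15) and with sgRNA 15 (log2 -0.44, edgeR adjusted p = 4.25e-15). Ap4m1, a subunit of the AP-4 coat, rose with sgRNA 11 (log2 0.57, edgeR adjusted p = 7.44e-07) and was lower with sgRNA 15 than with sgRNA 11 (log2 -0.43, edgeR adjusted p = 0.000235). It shares 22.1% of its exon length with Taf6 on the opposite strand. Lamtor4, a subunit of the Ragulator complex that recruits mTORC1 to lysosomes, had log2 values of -0.06 with sgRNA 11 and 0.02 with sgRNA 15, neither of which passed, and the value with sgRNA 11 passed after correction for GC content and length (log2 -0.13). Adap1, an Arf GTPase-activating protein, fell with sgRNA 15 (log2 -0.19, edgeR adjusted p = 1.22e-05), and Ift22, of ciliary transport, did not pass in any comparison.

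The 14 genes of receptors and signalling had 6 higher and 1 lower with sgRNA 11 than with safe sgRNA (42.9% and 7.14%, median 0.27) and 4 higher and 4 lower with sgRNA 15 (28.6% each, median 0.05). Between the guides 1 was higher and 6 were lower with sgRNA 15 (7.14% and 42.9%, median -0.36). The 6 were Orai2, Sh2b2, Gnb2, Pilra, Pilrb1 and Pilrb2, of which the receptor genes sit side by side. Gpr146, a receptor coupled to G proteins, rose with sgRNA 11 (log2 0.51, edgeR adjusted p = 2.83e-05) and with sgRNA 15 (log2 0.66, edgeR adjusted p = 1.71e-07). Rasa4, a GTPase-activating protein for Ras, rose with both guides as well (log2 0.26 and 0.27, edgeR adjusted p = 4.72e-05 and 1.72e-05).

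Among the 17 genes of transcription, zinc fingers and chromatin, 8 were higher and 6 lower with either guide than with safe sgRNA (47.1% and 35.3%), and with sgRNA 11 scaling by library size only gave 9 and 3. Between the guides 3 were higher and 7 lower with sgRNA 15 (17.6% and 41.2%), and the 7 were 4 after the GC and length correction and 4 without sgRNA 11 replicate 3. Cux1, a homeobox factor, rose with sgRNA 11 (log2 0.44, edgeR adjusted p = 9.6e-22) and with sgRNA 15 (log2 0.34, edgeR adjusted p = 9.98e-17). Tsc22d4, a leucine zipper protein, was lower with sgRNA 15 than with sgRNA 11 (log2 -0.28, edgeR adjusted p = 1.06e-11) and fell relative to safe sgRNA with sgRNA 15 (log2 -0.22, edgeR adjusted p = 8.29e-09). With sgRNA 11 its value was 0.06, which passed with scaling by library size only (log2 0.10), with no filter on low counts (log2 0.08), with a minimum mean of 5 CPM (log2 0.09), with a replicate block (log2 0.06), with only the 2 groups compared (log2 0.07), without safe sgRNA replicate 3 (log2 0.09), without sgRNA 15 replicate 1 (log2 0.07) and without sgRNA 15 replicate 2 (log2 0.07), and its direction turned after correction for GC content and length (log2 -0.06). Of the 6 genes of RNA processing, 5 were lower with sgRNA 11 (83.3%) and 4 with sgRNA 15 (66.7%) than with safe sgRNA. The 5 were 3 without safe sgRNA replicate 3, without sgRNA 11 replicate 2, with scaling by library size only, with no filter on low counts and with a minimum mean of 5 CPM, each time with the calls of Mepce and Ints1 lost. Srrt, Mepce and Ints1, all among the 5, also stand in the list of transcription, so their calls are counted in both lists. Mepce, which caps the 7SK RNA, fell with sgRNA 15 relative to safe sgRNA (log2 -0.36, edgeR adjusted p = 1.12e-09) and was lower than with sgRNA 11 (log2 -0.25, edgeR adjusted p = 1.86e-05). Its value with sgRNA 11 was -0.11 (edgeR adjusted p = 0.0412), a call lost with scaling by library size only (log2 -0.07), with DESeq2 (log2 -0.11), with no filter on low counts (log2 -0.09), with a minimum mean of 5 CPM (log2 -0.08), with only the 2 groups compared (log2 -0.10), without safe sgRNA replicate 1 (log2 -0.09), without safe sgRNA replicate 3 (log2 -0.09), without sgRNA 11 replicate 1 (log2 -0.07), without sgRNA 11 replicate 2 (log2 -0.10), without sgRNA 15 replicate 1 (log2 -0.10) and without sgRNA 15 replicate 2 (log2 -0.10).

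The list of mitochondria and the proteasome, with 6 genes, had 1 higher and 5 lower with sgRNA 11 (16.7% and 83.3%) and 4 lower with sgRNA 15 (66.7%) than with safe sgRNA. The 5 were 2 without sgRNA 11 replicate 1 and 3 without safe sgRNA replicate 1, with the calls of Fis1 and Dnaaf5 lost both times and that of Psmg3 in the first. The list's name does not describe Dnaaf5 (log2 -0.22 with sgRNA 11), which is 1 of the 5. Zfand2a, the partner of the proteasome described above, is counted with transcription instead and was called higher with sgRNA 11 (log2 0.12) and sgRNA 15 (log2 0.86). Cox19, of copper delivery to mitochondria, fell with sgRNA 11 (log2 -0.46, edgeR adjusted p = 3.15e-06) and with sgRNA 15 (log2 -0.47, edgeR adjusted p = 2.26e-06). So did Cops6, a subunit of the COP9 signalosome (log2 -0.37 and -0.36, edgeR adjusted p = 4.51e-15 and 2.64e-14). Mblac1, a metallo-beta-lactamase domain protein that the list's name does not describe, rose with sgRNA 11 (log2 0.58, edgeR adjusted p = 1.83e-06) and was lower with sgRNA 15 than with sgRNA 11 (log2 -0.35, edgeR adjusted p = 0.00606), which was lost after correction for GC content and length (log2 -0.24). With sgRNA 15 its value was 0.24 relative to safe sgRNA, and it passed with scaling by library size only (log2 0.28), after correction for GC content and length (log2 0.26), with a minimum mean of 5 CPM (log2 0.25) and without sgRNA 15 replicate 3 (log2 0.30). Of the 6 secreted and matrix genes, 4 were higher with sgRNA 11 (66.7%) and 3 with sgRNA 15 (50%) than with safe sgRNA. Ache, Pcolce and Fam20c are in the list, as are Cnpy4 and Plod3, which encodes a lysyl hydroxylase of collagen. The call of Plod3 with sgRNA 15 (log2 0.10) was lost in 5 of 18 alternatives. Of the 2 genes of the nuclear envelope and mitosis, Ppp1r35 was called higher with sgRNA 11 and Sun1 with sgRNA 15. Ppp1r35 had log2 0.18, a call lost after correction for GC content and length (log2 0.14), with DESeq2 (log2 0.18), without safe sgRNA replicate 1 (log2 0.15), without sgRNA 11 replicate 1 (log2 0.19), without sgRNA 11 replicate 2 (log2 0.16) and without sgRNA 11 replicate 3 (log2 0.19), and with sgRNA 15 its value was 0.16, which passed with scaling by library size only (log2 0.20), after correction for GC content and length (log2 0.22), with a minimum mean of 5 CPM (log2 0.18) and without sgRNA 15 replicate 1 (log2 0.28). Sun1 had log2 0.11 with sgRNA 15, a call lost after correction for GC content and length (log2 0.09), with DESeq2 (log2 0.11), without safe sgRNA replicate 1 (log2 0.11), without safe sgRNA replicate 2 (log2 0.08), without sgRNA 15 replicate 1 (log2 0.09) and without sgRNA 15 replicate 2 (log2 0.11). With sgRNA 11 its value was 0.08, which passed with scaling by library size only (log2 0.12), with a minimum mean of 5 CPM (log2 0.11) and without safe sgRNA replicate 3 (log2 0.13).

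Levels of the neighbours in the safe libraries ran from 0.218 to 430.9 CPM, with a median of 18.7 CPM. Per kb of exon, Gnb2 was the highest, with 94.5 CPM per kb with sgRNA 11, 81.7 with sgRNA 15 and 86.7 with safe sgRNA. Next to it, Fam20c had 64.6 CPM per kb with sgRNA 11, 83.4 with sgRNA 15 and 65.4 with safe sgRNA. Among called genes, the median size of the difference from safe sgRNA was 0.46 on the log2 scale with sgRNA 11 and 0.40 with sgRNA 15, and it was 0.25 between the guides. A change of more than 1 on that scale was called at 7 neighbours with sgRNA 11 and 6 with sgRNA 15, and the largest called size between the guides was that of Pilrb2 (-0.85).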

How the data were processed

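RNA-seq counts per gene were deposited for 9 libraries of J774A.1 cells, 3 each with sgRNA 11, sgRNA 15 and safe sgRNA, after polyA selection per the labels' protocols. The submitters' processing notes name STAR, HTSeq and mm10. Tool versions, annotation and strand setting were not given in the sources used here. The deposited values were used as whole-number counts, 16405296 to 25613961 per library. Genes with at least 10 counts in at least 3 libraries (13575) were fitted with edgeR 4.0.16 (TMM, robust quasi-likelihood, all 9 libraries, R 4.3.3), with Benjamini-Hochberg adjustment per comparison at 0.05. Positions and exons came from GENCODE M21. CPM used TMM-scaled library sizes. The fit was tested on simulated data. Members and lists were chosen with earlier results of these data known.

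Named genes were the 8 nearest to Slc12a9 on each side and, per comparison, the 6 called members with the largest positive and the 6 with the largest negative log2 difference. The values of 1 of them are not reported here and are not drawn, but counts and medians include it. Genes were called uncertain where 10% or more of exon length or of 50-base words is shared. Alternatives were DESeq2 1.42.0, limma-voom (limma 3.58.1), other scaling and filters, a GC content and length correction, subsets of members, a replicate block and leaving out each library. Counting error aside, precision rests on 3 libraries per group.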

Additional observations from a re-analysis of the deposited data

Results flagged for a closer look

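Each value here is the log2 difference of sgRNA 15 minus sgRNA 11, given because the 2 guides' differences from safe sgRNA were themselves found to differ (edgeR adjusted p under 0.05). From the lower end to Slc12a9 they were -0.12 for Lrwd1, -0.54 for Orai2, -0.47 for Sh2b2, -0.091 for Cux1, 0.15 for 4933404O12Rik, -0.20 for Znhit1, -0.16 for Plod3, 0.15 for Trim56 and -0.12 for Srrt. From Slc12a9 to 138.5 Mb they were -0.25 for Gigyf1, -0.21 for Gnb2, -0.20 for Mospd3, 0.16 for Agfg2, -0.28 for Tsc22d4, -0.25 for Mepce, -0.47 for Pilra, -0.73 for Pilrb1, -0.85 for Pilrb2, -0.43 for Ap4m1, -0.23 for Cnpy4, -0.35 for Mblac1 and -0.45 for BC037034. Above 138.5 Mb they were 0.37 for Fam20c, 0.48 for Pdgfa, -0.15 for Adap1, 0.15 for 3110082I17Rik, -0.54 for C130050O18Rik, 0.73 for Zfand2a and 0.39 for Mafk. Beside the losses given with single genes in the results, the call of Lrwd1 was lost in 7 of 18 alternatives and that of Znhit1 in 6, Plod3 (-0.078) and Adap1 (-0.062) lost theirs after the GC and length correction, and Cux1 (-0.081) without sgRNA 11 replicate 3. The macrophage marker sum, 6860 to 6970 CPM with sgRNA 15 and 8530 to 8650 CPM with sgRNA 11, moved with the groups too, and its part in these differences was not tested.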

How the results depend on the processing

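For sgRNA 11 against safe sgRNA, the neighbours' median log2 difference of 0.11 was 0.153 with scaling by library size only, 0.063 after correction for GC content and length, 0.082 with limma-voom, 0.012 with a minimum mean of 5 CPM, and -0.001 both without the uncertain genes and with protein-coding genes only. In the main fit it was -0.017 over the neighbours that averaged 5 CPM or more. The median over all the neighbours ranged from 0.089 to 0.134 with 1 library left out. For sgRNA 15 against safe sgRNA, the median of 0.05 was 0.091 with scaling by library size only, 0.027 with protein-coding genes only, 0.041 with a minimum mean of 5 CPM, and 0.031 to 0.063 with 1 library left out. In the main fit it was 0.024 over the neighbours that averaged 5 CPM or more. For sgRNA 15 against sgRNA 11, the median of -0.07 was -0.021 after the GC and length correction, -0.08 with no filter on low counts, -0.045 without the uncertain genes and -0.053 with protein-coding genes only, and it ranged from -0.099 to -0.067 with 1 library left out. The 8 genes called higher there were 4 with DESeq2, 4 with no filter and 5 to 8 with 1 library left out. In sgRNA 11 against safe sgRNA, after the GC and length correction, Gnb2 (-0.004) and Tsc22d4 (-0.063) changed sign. The cause was not tested in any of these. Of 3918 values of single genes under an alternative, 3706 stayed on their side of the threshold, 153 lost a call and 57 gained one. The other 2 were those of Gnb2, which lost its call as its sign changed, and of Tsc22d4, which gained one as its sign changed. Neither was called in both directions.

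Deviations from the group means correlated by -0.007 to 0.058 between same-numbered libraries of different groups. Between libraries with different numbers they correlated by -0.083 to 0.038. Both ranges lie near 0 and overlap, and whether the numbers pair the libraries was not tested. With a replicate block, 28 genes were higher and 21 lower for sgRNA 11, 19 and 24 for sgRNA 15, and 8 and 21 between the guides, with medians of 0.117, 0.044 and -0.068. Depth limits genes near the count minimum, such as Ache and Ephb4, where leaving out 1 library changed a call.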
